A study of Sus scrofa with 32 samples.

Results

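The 8 genes described here were chosen for their place in fat mobilisation and fat synthesis: PNPLA2 and LIPE, PLIN4 and CIDEC, SCD and ACACA, PCK1, and NR1H3 (also called LXRA). They were picked by gene name with earlier results of these data known, and they are 8 of the 25322 gene IDs in the table of estimated read counts. All 8 passed the filter on low counts over the 32 libraries, as did 11563 genes in all. ACACA did so narrowly, with 0 to 32 counts per library, and it did not pass in the comparison of the muscles of Polish Landrace.

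RNA was measured in 2 muscles of 16 female pigs, 8 of the local Pulawska breed (PUL) and 8 of Polish Landrace (PL), a lean commercial breed. The muscles were longissimus dorsi (LD, the loin) and semimembranosus (S, the ham), which gives 4 groups of 8 libraries: PUL LD, PL LD, PUL S and PL S. The labels give an age of 180 days for every pig. By the study's methods the pigs were unrelated, from several farms, raised on the same station with free access to feed and fasted before slaughter. They were fed to a set body weight, and the study reports a higher daily gain in PL. It also treats age at slaughter as a trait that varied among pigs, so breed and true age may be confounded. No treatment or transgene separates the groups, and the same replicate number within a breed is the same pig in both muscles.

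Stored fat lies in lipid droplets as triglyceride. PNPLA2 (adipose triglyceride lipase) removes the first fatty acid from triglyceride, and LIPE (hormone-sensitive lipase) acts next, on diglyceride. PLIN4 and CIDEC are droplet coat proteins, of which CIDEC helps droplets fuse into the large droplet of white fat cells. ACACA (acetyl-CoA carboxylase) makes the building block of new fatty acids and SCD puts a double bond into saturated ones. PCK1 makes phosphoenolpyruvate for new glucose in liver and kidney and for the glycerol backbone of triglyceride in fat cells. NR1H3 is a nuclear receptor for oxysterols that switches on genes of fatty acid synthesis and cholesterol export. Muscle samples hold fibres, fibroblasts, vessels and a varying number of fat cells between the fibres, and several of these genes are used by fibres and fat cells alike.

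Library totals ran from 8821273 to 24761853 estimated counts, with a median of 15529948. Levels are given as CPM, counts scaled to a common library total with trimmed-mean factors over the 32 libraries, without a correction for gene length, so levels of different genes were not compared. Markers of fat cells were scarce. Of 10 markers on the list 5 had a gene ID and only PLIN1 and CFD passed the filter. PLIN1, the droplet coat protein of fat cells, ranged from 0 to 3.89 CPM, or from 0 to 78.59 counts, and CFD (adipsin) from 69.9 to 371 CPM. RETN was at 0 counts in 6 or 7 of the 8 libraries of each group. The fibre markers were high in every library, with a mean log2(CPM + 0.5) from 11.69 to 13.55 over ACTA1, ATP2A1, DES, MYOZ1, PYGM and TNNT1.

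Transcripts of genes typical of liver cells were raised in libraries of PUL replicates 1 to 5, and their origin was not tested. The mean log2(CPM + 0.5) of 17 hepatocyte genes was 0.66 to 5.44 in those 10 libraries, and it did not exceed 0.22 in the other 22. ALB, the serum albumin gene, reached 918 CPM in PUL S and at most 4.27 CPM in a PL library. The breed differences of the 8 genes are therefore given with and without those pigs. The fits without them keep only replicates 6 to 8 of PUL, so they are less certain.

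PNPLA2, the first lipase, had a median of 21.8 CPM in PUL LD (range 16.8 to 48.7) and 18.3 CPM in PL LD (10.5 to 29.9). In S the median was 36.1 CPM in PUL (10.3 to 47.6) and 19.1 CPM in PL (11.7 to 30.8). In S 6 of 8 PUL libraries lay above every PL library, whereas the lowest PUL library lay below all of PL, so the groups overlapped. At least 6 of 8 PUL libraries lay above every PL library for 1.24% of the 10687 genes tested in S and for 0.547% of the 10792 tested in LD. The log2 fold change, PL over PUL, was -0.49 (SE 0.27) in LD and -0.75 (SE 0.25) in S. Neither passed edgeR's quasi-likelihood test with Benjamini-Hochberg adjustment (adjusted p = 0.74 and 0.283). Without PUL replicates 1 to 5 the values were -0.23 (SE 0.32) in LD and -0.83 (SE 0.24) in S.

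LIPE, the second lipase, was low in every library, with 15 to 318 counts. In LD it had a median of 5.55 CPM in PUL (2.63 to 11.8) and 3.77 CPM in PL (1.92 to 8.07). In S the median was 6.29 CPM in PUL (3.06 to 12.6) and 2.52 CPM in PL (1.6 to 4.58). In S 4 of 8 PUL libraries lay above all PL libraries and 5 of 8 PL libraries below all PUL libraries, with an overlap in the middle. The share of all genes with such counts was not computed, so they are a description. Between breeds, PL over PUL, the log2 fold change was -1.34 (SE 0.35, 95% interval -2.03 to -0.66) in S and -0.63 (SE 0.36) in LD. By edgeR's quasi-likelihood test the adjusted p was 0.204 in S and 0.749 in LD. By DESeq2 the difference in S passed the threshold, at an adjusted p of 0.0304.

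The difference of LIPE in S kept its size when PUL replicates 1 to 5 were left out (-1.45, SE 0.34) and with the hepatocyte level as a covariate (-1.73, adjusted p = 0.0619 by edgeR). In LD the corresponding values were -0.07 (SE 0.45) and -0.01 (SE 0.42), against -0.63 with all pigs. With these errors, neither value can be told from -0.63. The hepatocyte level was at most 0.22 in PL LD and -0.04 in PL S, while it reached 3.09 in PUL LD and 5.44 in PUL S. That covariate is therefore partly confounded with breed in both muscles. Adding the fat cell marker level left the value in S at -1.35.

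NR1H3 had the lowest SD of log2(CPM + 0.5) of the 8 over the libraries, 0.35. Its highest library, PUL S replicate 2, was 2.77-fold above its lowest, PL S replicate 1. The median was 32.6 CPM in PUL LD (21.8 to 37.6), 26.1 CPM in PL LD (24.1 to 40.4), 34.3 CPM in PUL S (21.8 to 51.8) and 22.7 CPM in PL S (18.7 to 26.5). In S 7 of 8 PUL libraries lay above all PL libraries, while in LD the breeds overlapped throughout. The share of all genes with at least 7 of 8 was not computed. For at least 6 of 8 it was 1.24% of the 10687 genes tested in S, so the count is a description. The log2 fold change, PL over PUL, was -0.63 (SE 0.16) in S and -0.14 (SE 0.15) in LD, with adjusted p values of 0.204 and 0.897 by edgeR. DESeq2 gave an adjusted p of 0.0304 in S. Without PUL replicates 1 to 5 the value was -0.58 (SE 0.16) in S and -0.12 (SE 0.20) in LD. With all 32 libraries in one edgeR fit the adjusted p of NR1H3 in S was 0.0389, and that of LIPE 0.0995. That fit called 0.605% of 11563 genes in S, and it treats the muscles of a pig as independent samples.

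**Figure D1:**
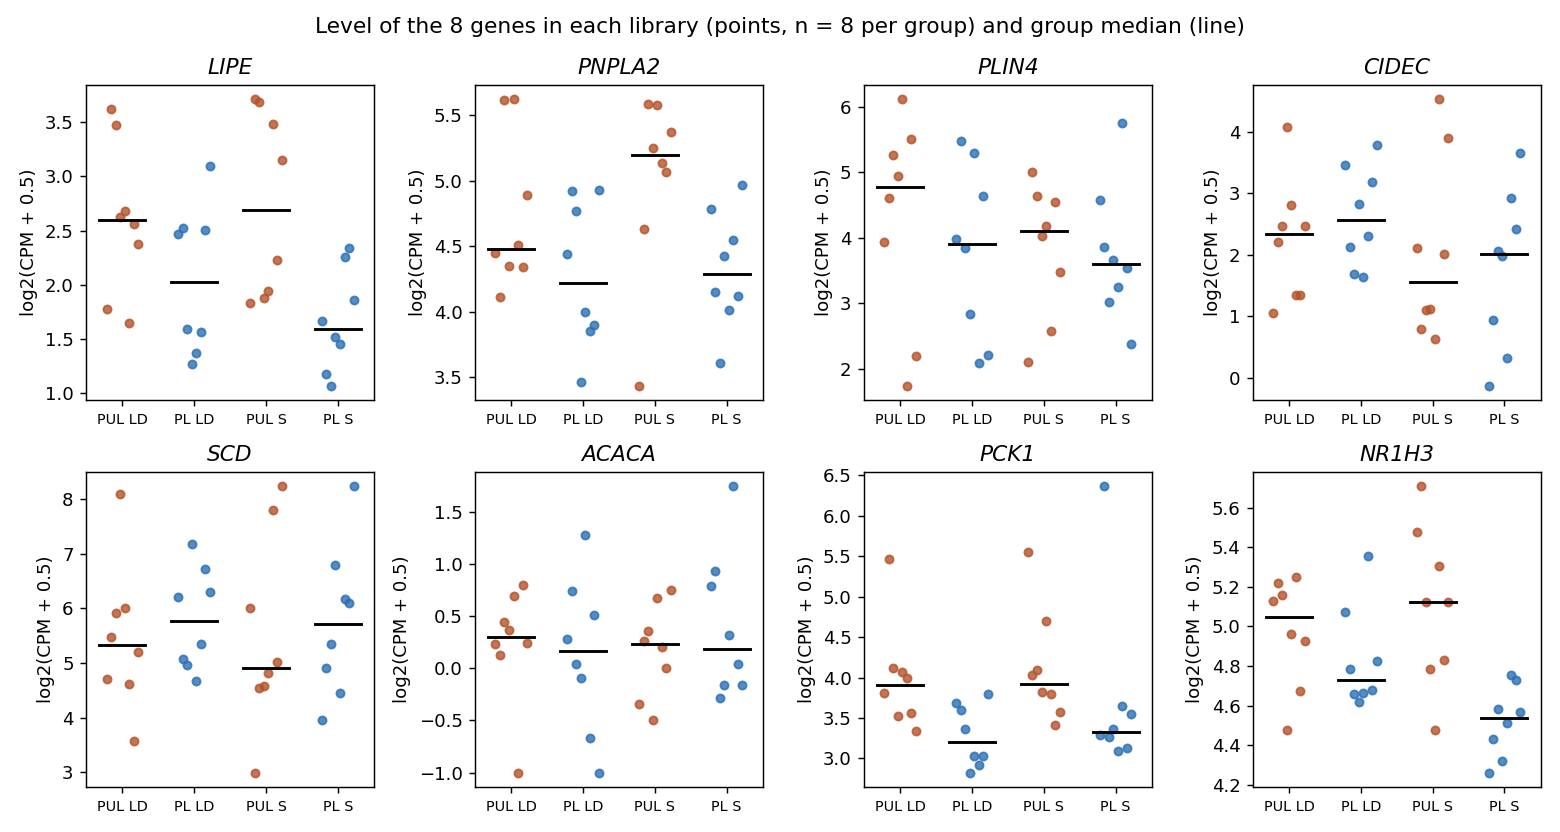
Level of each of the 8 genes as log2(CPM + 0.5) in every library, by group (PUL in orange, PL in blue, n = 8 per group). Points are libraries and black lines are group medians. NR1H3 in S has 7 of 8 PUL points above all PL points. At least 6 of 8 lay so for 1.24% of the genes tested in S. PCK1 in PL S has a single point at 82.2 CPM far above the next at 12 CPM.

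PLIN4, a droplet coat protein of fat and muscle, varied 24.1-fold over the libraries. It had medians of 27.2 CPM in PUL LD (2.85 to 68.7), 14.5 CPM in PL LD (3.75 to 43.8), 16.7 CPM in PUL S (3.81 to 31.6) and 11.6 CPM in PL S (4.71 to 53.4). The ranges of the 4 groups overlapped. Set as PL over PUL, the log2 fold change was -0.61 (SE 0.60) in LD and 0.03 (SE 0.47) in S, which is no larger than about the standard error, and without PUL replicates 1 to 5 it was 0.11 (SE 0.89) and 0.37 (SE 0.64). Leaving out 1 library moved it from -0.92 (PL LD replicate 2) to -0.29 (PUL LD replicate 5) in LD, and from -0.49 (PL S replicate 6) to 0.24 (PUL S replicate 2) in S.

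CIDEC, the fusion protein of white fat droplets, had the largest fold from the lowest to the highest library among the 7 genes with no library at 0, 55.3-fold between PL S replicate 1 (0.411 CPM) and PUL S replicate 6 (22.7 CPM). By the SD of log2(CPM + 0.5) its 1.16 was below the 1.32 of SCD and the 1.21 of PLIN4. Its medians were 4.57 CPM in PUL LD (1.58 to 16.5), 5.52 CPM in PL LD (2.63 to 13.4), 2.61 CPM in PUL S (1.05 to 22.7) and 3.55 CPM in PL S (0.411 to 12.1). The breeds overlapped in both muscles. The log2 fold change, PL over PUL, was 0.29 (SE 0.46) in LD and -0.58 (SE 0.71) in S. Without PUL replicates 1 to 5 it was 1.12 (SE 0.55) and -1.70 (SE 0.74), of opposite sign in the muscles. Single libraries moved it as well, in LD from 0.09 (without PL LD replicate 8) to 0.81 (without PUL LD replicate 4) and in S from -1.01 (without PL S replicate 8) to 0.1 (without PUL S replicate 6).

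SCD, the desaturase, varied 40.6-fold. Its medians were 40.1 CPM in PUL LD (11.3 to 274), 56.9 CPM in PL LD (25.1 to 145), 29.7 CPM in PUL S (7.45 to 303) and 54 CPM in PL S (15 to 303). The highest library of PUL LD was replicate 4, of PUL S replicate 8 and of PL S replicate 8. As a log2 fold change, PL over PUL, the difference was -0.02 (SE 0.55, 95% interval -1.09 to 1.06) in LD and -0.11 (SE 0.72, -1.52 to 1.3) in S, and without PUL replicates 1 to 5 it was 1.47 (SE 0.57) and -1.20 (SE 0.78). In LD it ran from -0.3 without PL LD replicate 4 to 0.82 without PUL LD replicate 4, and in S from -0.77 without PL S replicate 8 to 0.53 without PUL S replicate 8. With all pigs, the breed difference of SCD could not be told from 0 in either muscle, and its intervals are wide.

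ACACA, the carboxylase of fatty acid synthesis, was near the limit of detection. It had medians of 0.736 CPM in PUL LD (0 to 1.24), 0.623 CPM in PL LD (0 to 1.93), 0.674 CPM in PUL S (0.208 to 1.18) and 0.64 CPM in PL S (0.32 to 2.86). The log2 fold change, PL over PUL, was -0.04 (SE 0.59) in LD and 0.50 (SE 0.46) in S, which at this depth was not a detectable difference, and without PUL replicates 1 to 5 it was 0.18 (SE 1.01) and 0.31 (SE 0.66). Without PL S replicate 6 alone, the library at 2.86 CPM, the value in S was 0.06.

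PCK1 had medians of 14.5 CPM in PUL LD (9.65 to 43.8), 8.73 CPM in PL LD (6.59 to 13.4), 14.8 CPM in PUL S (10.2 to 46.6) and 9.56 CPM in PL S (8.04 to 82.2). In LD 5 of 8 PUL libraries lay above all PL libraries. In S 5 of 8 PL libraries lay below all PUL libraries, but PL S replicate 2 lay above all the others. For these counts too, the share over all genes was not computed. For PL over PUL, the log2 fold change was -0.87 (SE 0.28) in LD, at an adjusted p of 0.52 by edgeR, and -0.05 (SE 0.50) in S. Without PUL LD replicate 2 the value in LD was -0.5. Without PL S replicate 2 the value in S was -0.98 (adjusted p = 0.259 by edgeR), and without PUL replicates 1 to 5 it was 0.67 (SE 0.73). DESeq2 gave -0.95 (SE 0.28, adjusted p = 0.0582) in S, and in that fit it replaced the count of PL S replicate 2, 699, with 103 as an outlier. PCK1 is the only one of the 8 whose counts were fractional, in all 32 libraries, which means that reads shared with another transcript were divided by the authors' counting, so its level is less certain.

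**Figure D2:**
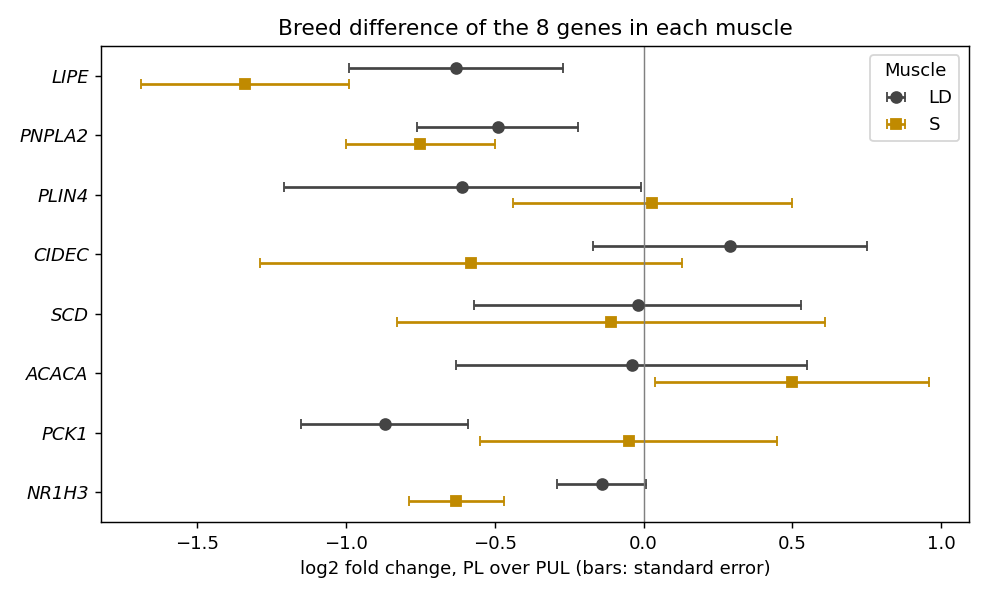
Log2 fold change, PL over PUL, of the 8 genes in LD (circles) and S (squares), from edgeR's quasi-likelihood fit with 8 libraries per group. Bars are standard errors. The 3 values in S farthest from 0 in units of their error are LIPE at -1.34, NR1H3 at -0.63 and PNPLA2 at -0.75.

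Counted together, 0 of the 8 genes were called between breeds in either muscle, where a call was an adjusted p of at most 0.05 and a fold change of at least 1.3 by edgeR's quasi-likelihood test. The same held for all genes: 0% of 10792 tested were called in LD and 0% of 10687 in S. At an unadjusted p under 0.05, edgeR gave 1 of the 8 in LD (PCK1), where 7.15% of all genes had such a p, and 3 of the 8 in S (LIPE, NR1H3 and PNPLA2), where 11.7% had. The 8 were not picked independently of these data, so their counts are a description. DESeq2 called 0.176% of genes in LD, none of the 8 among them, and 0.964% in S, among them LIPE and NR1H3. The edgeR exact test called 0.12% of genes in LD and 0.524% in S, and of the 8 it called LIPE in S (adjusted p = 0.0473). The median log2 fold change of the 8 was -0.32 in LD and -0.34 in S, against 0.01 and 0.02 over all genes tested. Of the 8, 7 were negative in LD and 6 in S. Without PUL replicates 1 to 5 the median turned to 0.02 in LD, with 4 of 8 negative, and was -0.71 in S, with 5 of 8 negative, against 0.05 and 0.07 over all genes.

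Levels of other cell types were compared between breeds in the same libraries, and none of the differences passed adjustment. The mean log2 level of 5 fibroblast genes was higher in PL by 1.36 in LD and by 1.40 in S (exact permutation test, two-sided, p = 0.0412 and 0.032, adjusted p = 0.247 for each over 24 tests). The hepatocyte level was lower in PL by a log2 difference of -1.53 in LD and -1.73 in S (exact p = 0.0169 and 0.00606, adjusted p = 0.203 and 0.145). The fat cell level differed by -0.19 in LD and -0.12 in S (exact p = 0.536 and 0.689), and the fibre level by 0.01 and -0.36 (exact p = 0.952 and 0.12). In whole muscle, fewer cells of a type and less RNA per cell cannot be told apart, and the part of these cell types in the differences of LIPE, NR1H3 and PNPLA2 was not tested beyond the covariates given above.

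Between the muscles, the 8 genes gave no call either. In PUL 0.0557% of 10771 genes were called and 4.04% had an unadjusted p under 0.05, with none of the 8 among either. In PL 0% of 10680 were called and 2.47% had an unadjusted p under 0.05, among them NR1H3 with a log2 fold change, S over LD, of -0.33 (SE 0.13, adjusted p = 1 by edgeR). DESeq2 and the edgeR exact test also called 0 genes between the muscles of PL. None of these fits paired the muscles of a pig. With pig as a block in edgeR, 0.065% of genes were called in PUL and 0% in PL. In that fit 8.45% had an unadjusted p under 0.05 in PUL and 1.35% in PL, and NR1H3 in PL was at -0.32 (SE 0.13). The breed by muscle interaction, fitted with pig as a block, called 0% of 11563 genes, with 294 at an unadjusted p under 0.05. NR1H3 had an interaction of -0.46 (SE 0.17, adjusted p = 1 by edgeR) and LIPE of -0.57 (SE 0.42), so a difference of the breed effect between muscles was not shown for either.

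What the muscles of a pig did show was that some of these genes vary from sample to sample within an animal. The median absolute log2 difference between S and LD of the same pig was 1.34 for SCD, 1.26 for CIDEC, 0.95 for PLIN4, 0.61 for LIPE, 0.57 for PNPLA2, 0.51 for ACACA, 0.28 for NR1H3 and 0.27 for PCK1. SCD was higher in S in 7 of 16 pigs and CIDEC in 6 of 16, so the direction was not shared. In PUL replicate 4 SCD was 274 CPM in LD and 23.5 CPM in S. In PUL replicate 6 the order was turned, with 24.1 CPM in LD and 223 CPM in S.

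To separate genes that follow the fat cells from genes that do not, each gene was fitted against the fat cell marker level across the 16 libraries of a muscle, with breed in the model. The slope is the log2 change of the gene per doubling of the markers. SCD rose with the markers by 1.85 (SE 0.22) in LD and 2.25 (SE 0.33) in S, with adjusted p of 0.0014 and 0.0155 by edgeR. CIDEC rose by 1.45 (SE 0.24) and 2.13 (SE 0.33), with adjusted p of 0.0499 and 0.0185. These were 2 of 3 genes called in LD, or 0.0278% of those tested, and 2 of 8 in S, or 0.0749%. The third gene in LD was SFRP1, a secreted antagonist of Wnt signalling.

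The slopes of the other 6 genes did not pass the test in either muscle. For LIPE they were 0.58 (SE 0.32) in LD and 0.14 (SE 0.28) in S, for PNPLA2 0.06 (SE 0.27) and 0.10 (SE 0.22), and for NR1H3 -0.10 (SE 0.15) and 0.05 (SE 0.14). The 95% intervals of NR1H3 reached at most 0.19 in LD and 0.32 in S, below the lower bounds for SCD (1.43 and 1.6) and CIDEC (0.98 and 1.49). That separation did not hold for LIPE in LD, whose interval of -0.04 to 1.21 overlapped that of CIDEC. For PLIN4 the slopes were -0.46 (SE 0.55) and -0.24 (SE 0.43), for ACACA -0.57 (SE 0.51) and 0.50 (SE 0.39, 0.1 without PL S replicate 6), and for PCK1 0.19 (SE 0.28) and -0.27 (SE 0.53).

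The calls rest on few libraries. With each library left out in turn, the slope of SCD stayed between 1.54 and 1.99 in LD and between 2.05 and 2.49 in S. Its call was lost in LD without PUL replicate 4 (adjusted p = 0.0923) and in S without PUL replicate 2 (0.0647), PUL replicate 8 (0.0848) or PL replicate 8 (0.052), all by edgeR. The slope of CIDEC stayed between 1.25 and 1.57 in LD, where the call was lost without any of 14 of the 16 libraries (up to an adjusted p of 0.729 without PUL replicate 4), and between 1.94 and 2.36 in S, where it was lost without PUL replicate 2 (0.0647), 6 (0.106) or 8 (0.0848) or PL replicate 8 (0.0606). Without the 2 libraries farthest from the median marker level, PUL replicate 4 and PL replicate 5 in LD and PUL replicates 6 and 8 in S, the slopes were 1.52 and 2 for SCD (adjusted p = 0.649 and 1) and 1.17 and 1.81 for CIDEC (0.999 and 1), so no call held.

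The 2 markers were not alike. On PLIN1 alone, SCD had slopes of 1.19 (SE 0.16, adjusted p = 0.00379) in LD and 1.3 (SE 0.22, 0.0342) in S, and CIDEC of 0.98 (SE 0.17, 0.0568) and 1.33 (SE 0.19, 0.00947). These are per unit of log2(CPM + 0.5) of PLIN1, on which PLIN1 itself had a slope of 1.81 (SE 0.17) in LD. PLIN1 alone gave calls for 0.0185% of genes in LD, PLIN1 itself included, and for 0.122% in S, where PLIN1 did not pass the filter. On CFD alone 28.8% of all genes were called in LD and 3.16% in S, and neither SCD nor CIDEC was among them (slopes 0.83 and 0.55 in LD, adjusted p = 0.131 and 0.214). PLIN4 and ACACA fell with CFD in LD, by -1.24 (SE 0.35, adjusted p = 0.0144) and -1.15 (SE 0.35, adjusted p = 0.0198), counts to be read against that 28.8%. Markers of other cell types went with CFD too: 5 of 6 macrophage and 4 of 5 fibroblast markers were called upward in LD, and 2 and 2 in S. On PLIN1 and CFD together all 6 and all 5 had positive slopes in both muscles, with medians of 0.45 in LD and 0.82 in S for macrophages and of 0.81 and 1.08 for fibroblasts, and 0 were called. On PLIN1 alone the medians were -0.40 and 0.18 for macrophages and -0.04 and 0.41 for fibroblasts, also with 0 called. The part of these cells in the slopes of the 8 genes was not tested.

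The comparison within pigs needs no breed term. Across the 16 pigs, the difference between S and LD of CIDEC followed that of PLIN1 with Pearson's r = 0.84 and Spearman's rho = 0.88 (permutation p = 3e-05 and 4e-05, adjusted p = 0.00024 and 0.00016 over 8 genes). For SCD r was 0.83 and rho 0.89 (permutation p = 9e-05 and 1e-05, the latter the smallest that 100000 permutations can give, adjusted p = 0.00036 and 8e-05). Leaving out the 2 pigs farthest from the median of PLIN1, PUL replicate 6 and PL replicate 6, left r at 0.82 for CIDEC and 0.88 for SCD. Within breeds r was 0.97 in PUL and 0.67 in PL for CIDEC, and 0.92 and 0.61 for SCD.

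Of the other 6 genes, ACACA, PLIN4 and LIPE had r of 0.66, 0.61 and 0.57 with PLIN1 (permutation adjusted p = 0.0146, 0.0236 and 0.0347), which rested on those 2 pigs. Without them r was 0.25, 0.29 and 0.18, and the rank correlations of 0.51, 0.47 and 0.37 did not pass (permutation adjusted p = 0.126, 0.136 and 0.255). NR1H3, PNPLA2 and PCK1 had r of -0.04, 0.11 and 0.08 (permutation p = 0.888, 0.689 and 0.779).

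**Figure D3:**
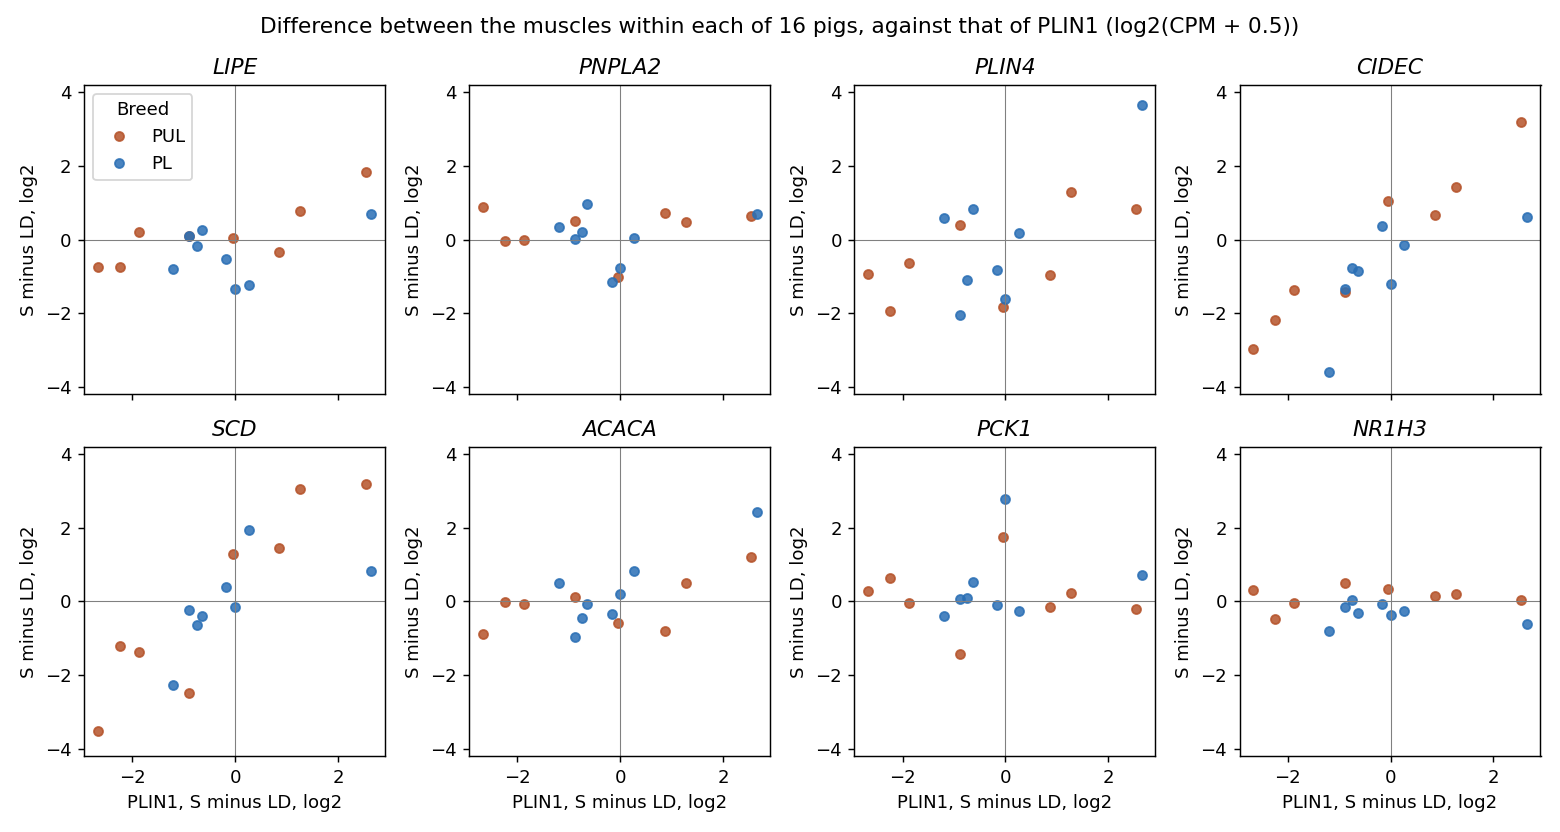
Difference between the muscles of the same pig, S minus LD on log2(CPM + 0.5), for each gene (vertical axis) against that of PLIN1 (horizontal axis), in 8 PUL (orange) and 8 PL (blue) pigs. The points of CIDEC and SCD rise along the diagonal (r = 0.84 and 0.83), while those of NR1H3 stay flat (r = -0.04).

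Against the fibres, each gene was fitted in the same way on the level of the 6 fibre markers. PLIN4 rose with them in S by 1.59 (SE 0.42, adjusted p = 0.0159) and had a slope of 1.18 (SE 0.61, adjusted p = 0.23) in LD. In S 18.2% of all genes were called in this fit, and in LD 0.0371%, so 1 called gene of 8 in S is near the background. PNPLA2 had slopes of 0.73 (SE 0.24, adjusted p = 0.093) in LD and 0.30 (SE 0.31) in S, and ACACA of 0.72 (SE 0.63) and 1.24 (SE 0.46, adjusted p = 0.0697). SCD had -0.94 (SE 0.63) and -0.97 (SE 0.84), and CIDEC -0.67 (SE 0.54) and -0.29 (SE 0.83). NR1H3, at -0.07 (SE 0.16) and -0.13 (SE 0.19), and LIPE, at -0.13 (SE 0.35) and 0.37 (SE 0.42), followed neither set of markers past the test.

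**Figure D4:**
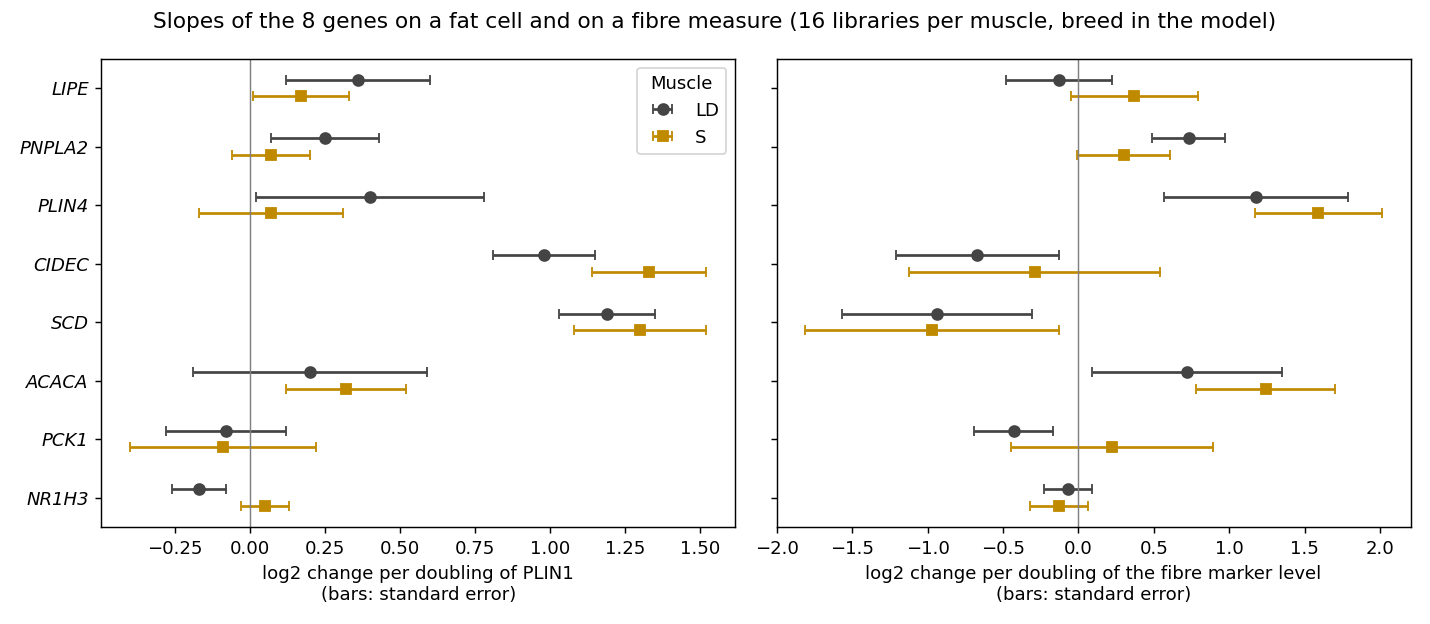
Slope of each gene per doubling of PLIN1 (left) and of the mean level of 6 fibre markers (right), in LD (circles) and S (squares), 16 libraries per muscle with breed in the model; bars are standard errors. On the left SCD and CIDEC stand between 0.98 and 1.33, and the other genes between -0.17 and 0.40; the horizontal scales of the panels differ.

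PCK1 was high in single libraries. PUL LD replicate 2 held 43.8 CPM against 16.9 CPM in the next, PUL S replicate 1 held 46.6 CPM against 25.6 CPM, and PL S replicate 2 held 82.2 CPM against 12 CPM. The first and second are libraries with raised hepatocyte genes, at hepatocyte levels of 3.09 and 2.82. The third is not, at a level of -0.15 and with ALB at 1.18 CPM. Per unit of the hepatocyte level PCK1 had slopes of 0.34 (SE 0.12, adjusted p = 0.977) in LD and 0.30 (SE 0.20, adjusted p = 0.516) in S by edgeR. None of the 8 genes was called in this fit, where 0.0278% of genes were called in LD and 0.702% in S. With the hepatocyte level as a covariate the breed difference of PCK1 in LD was -0.26 (SE 0.3), and without PUL replicates 1 to 5 it was -0.36 (SE 0.27).

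**Figure D5:**
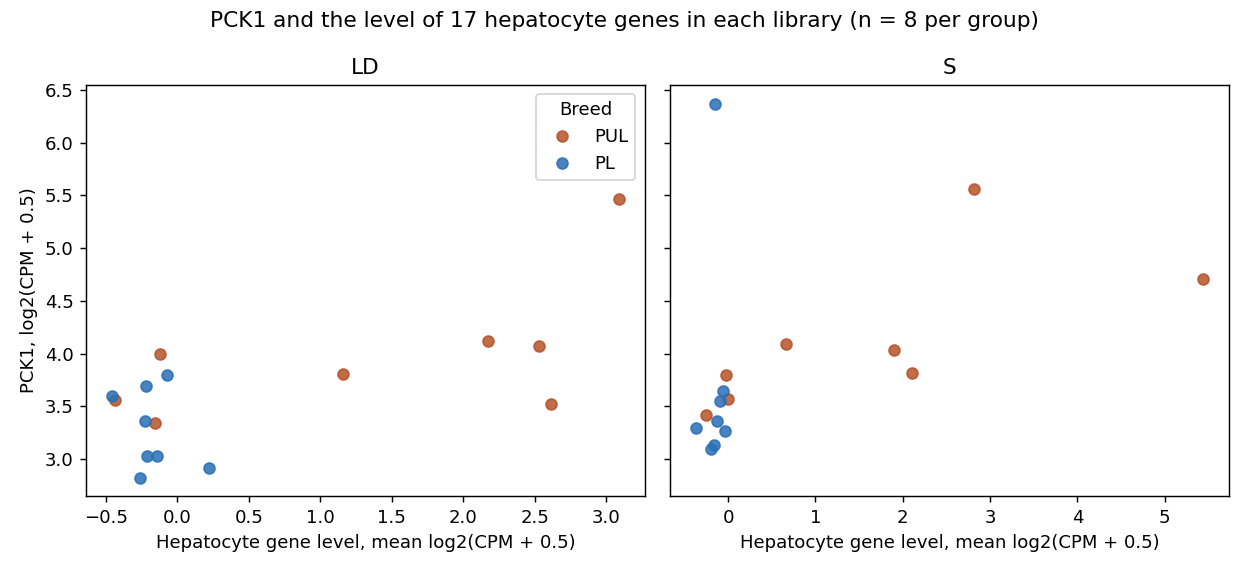
PCK1 as log2(CPM + 0.5) against the mean level of 17 hepatocyte genes in each library of LD (left) and S (right), PUL in orange and PL in blue, n = 8 per group. PL libraries sit at hepatocyte levels up to 0.22, and the highest PCK1 point of all, 82.2 CPM in PL S, is at -0.15.

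The members also differed in the genes most like them, ranked by Pearson's r of log2(CPM + 0.5) over the 16 pigs, averaged over the muscles, among 7102 named genes (7103 for ACACA) with a mean of at least 1 CPM. CIDEC and SCD named each other: SCD was second for CIDEC and CIDEC first for SCD, at a mean r of 0.89. PPP1R1B (0.90 with CIDEC, 0.79 with SCD) and SFRP1 (0.85 with both) completed both lists. For PLIN4 the nearest were SIN3B, THRAP3 and MAP4, each at 0.94, and for ACACA they were EMC1 (0.89), SF3B3 (0.88) and TSPYL1 (0.87).

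For LIPE the nearest genes were DDX49 (0.83), TUT1 and TEDC2 (0.75 each), for PNPLA2 they were NUBP2 (0.83), NUBP1 and PPP6R2 (0.82 each), and for NR1H3 MRPL24 (0.83), POLR1D (0.81) and BCAP31 (0.77). For PCK1 they were CRP (0.86), HAO2 (0.82) and SLC23A1 (0.76). CRP is an acute-phase protein of liver, HAO2 a peroxisomal oxidase of liver and kidney, and SLC23A1 a vitamin C transporter of kidney and gut. In PL S replicate 2, CRP stood at 10.2 CPM against at most 2.13 CPM in the other 7 PL S libraries. HAO2 stood at 2.28 CPM against at most 0.684 CPM, and SLC23A1 at 1.42 CPM against at most 1.13 CPM. Among all 32 libraries this one ranked 1 for CRP, 4 for HAO2 and 5 for SLC23A1. It also had the lowest library total, 8821273 counts, so low CPM values rest on few reads. These r values come from a search for the highest, so no p is given.

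Among the 8 genes themselves, 56 relations were computed, 28 pairs in each muscle. CIDEC and SCD had r = 0.88 in LD and 0.90 in S (permutation adjusted p = 0.000187 for each; rho = 0.93 and 0.90, permutation adjusted p = 0.00028 and 0.000373), and r without the 2 farthest pigs was 0.85 and 0.89. PLIN4 and ACACA had r = 0.86 in LD (permutation adjusted p = 0.000187, rho = 0.90, 0.78 without the 2 farthest pigs) and 0.61 in S (permutation adjusted p = 0.102). LIPE went with NR1H3 in S at r = 0.76 (permutation adjusted p = 0.0105, rho = 0.70, 0.66 without 2 pigs, 0.56 within PUL and 0.57 within PL) but had r = 0.15 in LD. LIPE went with PCK1 in LD at r = 0.71 (permutation adjusted p = 0.0105, rho = 0.73, 0.52 without 2 pigs) and had r = -0.11 in S. The lipases LIPE and PNPLA2 had r of 0.51 and 0.55, which did not pass the adjustment (permutation adjusted p = 0.279 and 0.194).

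Other genes of these pathways, from lists that leave out the 8, gave the surroundings. Of 22 genes of lipolysis and the droplet 11 passed the filter over all libraries, and of 10 tested between breeds 0 were called in either muscle by edgeR, with medians of -0.11 in LD and -0.11 in S. At an unadjusted p under 0.05 there were 0 and 1 of these 10. The one with the smallest p in S was PLIN5, the droplet protein of oxidative fibres, at -0.94 (SE 0.45, adjusted p = 0.425). PLIN5 also had the smallest p between the muscles of PUL, at 1.72 (SE 0.52, adjusted p = 0.8) for S over LD. On the fat cell markers 0 of 10 were called, and ABHD5, the activator of PNPLA2, had slopes of 0.01 (SE 0.19) in LD and -0.58 (SE 0.15, adjusted p = 0.194) in S.

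Of 19 genes of fatty acid and triglyceride synthesis tested between breeds, 0 were called by edgeR, and 12 had negative values in LD and 15 in S, with medians of -0.08 and -0.15. Those with the smallest p were SCAP, a sterol-sensing escort protein, at -0.37 (SE 0.17, adjusted p = 0.674) in LD, and AGPAT1, an acyltransferase of glycerolipid synthesis, at -0.59 (SE 0.23, adjusted p = 0.353) in S. FASN, the fatty acid synthase, did not pass the filter, with at most 4.83 CPM. On the fat cell markers the smallest p in LD belonged to GPAT4, an acyltransferase of the first step of glycerolipid synthesis, with a slope of -0.47 (SE 0.18, adjusted p = 0.808), followed by ME1, which supplies NADPH for synthesis, with 0.43 (SE 0.17, adjusted p = 0.808). In S the slope of SLC25A1, the mitochondrial citrate carrier, was 0.51 (SE 0.13, adjusted p = 0.194). Of these 19 genes 0 were called on the fat cell markers in either muscle.

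Of 16 listed partners and targets of NR1H3, 9 passed the filter over all libraries, and these hold partner receptors as well as targets. The targets ABCA1 and ABCG1 did not pass, with at most 0.354 and 0.235 CPM. The 9 gave 0 calls between breeds, and 8 of 9 were negative in S, with a median of -0.30 against 0.02 over all genes. NR1H2, the sister receptor, had -0.36 (SE 0.17, adjusted p = 0.421) in S. APOE, a target of the receptor, had slopes of 1.16 (SE 0.35, adjusted p = 0.808) in LD and 1.47 (SE 0.32, adjusted p = 0.127) in S on the fat cell markers. Of 6 genes of glyceroneogenesis and gluconeogenesis, which share a pathway with PCK1, 0 were called between breeds, and PC, pyruvate carboxylase, rose with PLIN1 in S by 0.56 (SE 0.10, adjusted p = 0.0441), though its slope on PLIN1 and CFD together was 0.74 (SE 0.22, adjusted p = 0.256).

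Of 14 genes of fatty acid uptake and oxidation 0 were called between breeds in either muscle. ANGPTL4, an inhibitor of lipoprotein lipase, had 0.87 (SE 0.30, adjusted p = 0.534) in LD, and PPARD, a receptor that drives fat oxidation, -0.58 (SE 0.24, adjusted p = 0.374) in S. On the fat cell markers 11 of 14 had negative slopes in LD and 9 of 14 in S, with medians of -0.23 and -0.24 against -0.01 and 0.01 over all genes, and 0 of 14 were called. The smallest p values belonged to HADHB, of the mitochondrial trifunctional protein, at -0.47 (SE 0.13, adjusted p = 0.808) in LD, and CPT2, a carnitine transferase, at -0.53 (SE 0.16, adjusted p = 0.262) in S.

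On the fibre markers in S, where 18.2% of all genes were called, 7 of the 58 tested genes of these 5 lists were called, or 12.1%, which is below that background. LIPA, the lysosomal lipase, fell with the fibre level by -1.81 (SE 0.26, adjusted p = 0.000524) and ANGPTL4 by -1.02 (SE 0.30, adjusted p = 0.026). GPAT4 rose by 1.13 (SE 0.21, adjusted p = 0.00258) and SREBF2, a transcription factor of sterol synthesis, by 1.34 (SE 0.29, adjusted p = 0.0057). NR1H2 rose by 0.55 (SE 0.15, adjusted p = 0.0213), PPARD by 0.75 (SE 0.23, adjusted p = 0.033) and SLC27A1, a fatty acid transporter, by 1.13 (SE 0.38, adjusted p = 0.0463).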

How the data were processed

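RNA of 32 muscle samples was depleted of ribosomal RNA and sequenced single-end with a kit that does not mark strand. Per the labels and the study's methods, the authors used CASAVA 1.8.2, aligned reads to Sscrofa10.2 with Bowtie 2 and deposited RSEM expected counts per gene. RSEM divides shared reads between genes, so values need not be whole. The isoform table was not used. Of 25322 Ensembl IDs, 11804 matched a symbol.

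Expected counts were rounded to whole numbers. The main test was edgeR 4.0.16 (glmQLFit, glmQLFTest; R 4.3.3) on the 8 + 8 libraries of each comparison with TMM factors, filterByExpr and Benjamini-Hochberg adjustment. A call needed an adjusted p of at most 0.05 and, between groups, a fold change of at least 1.3. DESeq2 1.42.0 was an alternative. Levels of cell types are means of log2(CPM + 0.5) over the genes of a list that passed the filter, and were compared by exact permutation (12870 splits, or 256 sign flips within pigs). The fits were tested on simulated data. Correlations, fibre, CFD and hepatocyte slopes, and fits without PUL replicates 1 to 5 were chosen after seeing the data.

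The 8 genes and the lists were chosen with earlier results of these data known. From the lists, called genes are named (at most 5 per list and comparison) or else those with the smallest p (at most 3). For each of the 8, the 3 genes with the highest mean r are named. Replicates are separate pigs. Libraries of a group differed by far more than counting noise (chi-square over its degrees of freedom at least 35.51), so no library was counted as a repeat of another. LD and S of a pig are paired by animal: their deviations from the group means correlated with a median of 0.41 in PUL (6 of 8 pigs over 0.1) and 0.11 in PL (4 of 8). The main test between muscles left this pairing out, and pig as a block was an alternative.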

Additional observations from a re-analysis of the deposited data

Results flagged for a closer look

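Of 32 combinations of gene and group, 8 had a library whose gap to the next, as a share of the group's range, exceeded Dixon's critical value. For normally distributed values chance would flag about 1 in 20 such groups, but the gaps were taken on CPM without a log. All 8 were the highest library of their group, and the genes are not independent. The count of 8 is therefore a description and cannot be set against that rate. CIDEC and SCD stood apart in the same library, PUL LD replicate 4, at 16.5 CPM (next 6.53) and 274 CPM (next 64), and that library also held the highest PLIN1, 3.89 CPM. SCD stood apart in PL S replicate 8 as well, at 303 CPM against 111 CPM in the next, where PLIN1 was 1.3 CPM. PLIN4 and ACACA stood apart in PL S replicate 6, at 53.4 CPM (next 23.4) and 2.86 CPM (next 1.41), a library with the highest fibre marker level of its group (13.42) and PLIN1 at 3.21 CPM. PCK1 stood apart in 3 groups, at 43.8 CPM in PUL LD replicate 2, 46.6 CPM in PUL S replicate 1 and 82.2 CPM in PL S replicate 2. The part of fat cell, fibre or liver RNA in these values was not tested.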

How the results depend on the processing

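The values that changed call or sign, or moved by over 1.5 times, follow, and the cause was not tested. The slope of CIDEC in LD lost its call without the breed term (1.27, adjusted p = 0.297 by edgeR), with the hepatocyte level (1.36, 0.4), with RLE factors (1.45, 0.0591), on PLIN1 alone (0.98, 0.0568) and with replicate number as a block (1.74, 1). In S, CIDEC and SCD lost theirs with the hepatocyte level (1.97, 0.0892, and 2.2, 0.077) and with that block (2.51, 0.729, and 3.15, 0.39). Without the 2 farthest libraries and on CFD alone both lost it in both muscles, in S on CFD with 1.14 (0.48) for CIDEC and 1.65 (0.294) for SCD. Calls gained were LIPE in S between breeds by DESeq2 and the exact test, NR1H3 in S by DESeq2 and with all 32 libraries in one fit, and PLIN4 and ACACA in LD on CFD. Genes called between breeds in LD numbered 0 by the main test, 19 by DESeq2, 13 by the edgeR exact test, 4 without a filter, 6 with all 32 libraries in one fit and 1 without PUL replicates 1 to 5. In S they numbered 0, 103, 56, 4, 70 and 1 in the same order, 1 with RLE factors and 14 with the hepatocyte level as a covariate. Between the muscles of PUL there were 6, and 19 by DESeq2, 17 by the exact test, 17 without a filter, 2 with at least 10 counts in every library and 10 with all libraries in one fit. Called slopes in LD numbered 3, and 1 without the breed term, 1 with the hepatocyte level added, 5 without a filter, 5 with a pseudocount of 0.1, 0 without the 2 farthest libraries and 3107 on CFD alone. In S there were 8, and 13 on PLIN1 alone, 1 with the hepatocyte level, 0 without the 2 farthest libraries and 338 on CFD alone.

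Signs turned for the following values. Breed in LD gave SCD 0.71 with the fat cell level, 0.57 with PLIN1, 1.57 with the hepatocyte level and 1.47 without PUL replicates 1 to 5, ACACA 0.01 with the hepatocyte level and 0.18 without those pigs, and PLIN4 0.11 without them. Breed in S gave CIDEC 0.16 and SCD 0.68 with the fat cell level, PLIN4 -0.03 and SCD 0.24 with PLIN1, and PCK1 0.57 with the hepatocyte level and 0.67 without those pigs. Between muscles, PCK1 in PUL was -0.03 with library size alone, CIDEC in PUL -0.14 and PLIN4 in PL 0.21 with the hepatocyte level. Slopes in LD were 0.4 for PLIN4, 0.2 for ACACA and -0.08 for PCK1 on PLIN1, -0.05 for PNPLA2 and -0.19 for PCK1 with the hepatocyte level, and 0.11 for NR1H3 and -0.23 for PNPLA2 on CFD. Slopes in S were 0.07 for PLIN4 on PLIN1, -0.23 for LIPE, 0.31 for PLIN4 and 0.15 for PCK1 without the 2 farthest libraries, and -0.38 for LIPE, -0.06 for NR1H3, -0.02 for PNPLA2 and -0.21 for ACACA on CFD. With library size alone, the fibre level differed by -0.16 in LD, the endothelial level by -0.11 in LD, 0.02 in S, -0.04 between the muscles of PUL and 0.09 of PL, and the macrophage level by -0.1 and 0.01 between the muscles of PUL and PL.

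The pig as a block turned CIDEC in PUL to -0.25 and SCD in PL to -0.05, with 7 genes called in PUL and 0 in PL. The replicate numbers of the breeds do not pair pigs (median correlation 0.31 in LD and -0.06 in S, 4 and 1 of 16 libraries closest to their own number). As a block they left 0 calls between breeds in both muscles, 1 called slope in LD and 0 in S, with SCD between breeds at 0.3 in LD and 0.28 in S, PLIN4 at -0.24 in S, slopes in LD of 0.2 for NR1H3 and 0.17 for PLIN4, and slopes in S of -1.02 for LIPE, -0.02 for NR1H3, -0.99 for PNPLA2, -0.24 for ACACA and 1.75 for PCK1.

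With each library left out in turn, calls ranged from 0 to 1 between breeds in LD and in S, from 6 to 10 between the muscles of PUL, were 0 throughout in PL, and ranged from 0 (without PUL replicate 4) to 5 for slopes in LD and from 1 (without PUL replicate 2) to 110 (without PL replicate 6) in S. Between breeds in LD, SCD ranged from -0.3 to 0.82 and ACACA from -0.39 to 0.14. In S, LIPE ranged from -1.48 to -1.18, NR1H3 from -0.7 to -0.53, PNPLA2 from -0.89 to -0.66, PLIN4 from -0.49 to 0.24, CIDEC from -1.01 to 0.1, SCD from -0.77 to 0.53 and PCK1 from -0.98 to 0.29. ACACA in S ranged from 0.06 to 0.66, and in LD NR1H3 from -0.24 to -0.11, PLIN4 from -0.92 to -0.29, CIDEC from 0.09 to 0.81, PNPLA2 from -0.59 to -0.33, LIPE from -0.83 to -0.42 and PCK1 from -0.96 to -0.5. Between the muscles of PUL, LIPE ranged from 0.06 to 0.43, NR1H3 from 0.06 to 0.24, PNPLA2 from 0.22 to 0.46, PLIN4 from -0.97 to -0.45, CIDEC from -0.44 to 0.73, SCD from -0.25 to 1.22, ACACA from -0.31 to 0.01 and PCK1 from -0.17 to 0.53, and of PL, LIPE from -0.65 to -0.3, CIDEC from -1.09 to -0.44, PCK1 from 0.03 (without PL S replicate 2) to 1.09, PNPLA2 from -0.08 to 0.11, PLIN4 from -0.65 to 0.16 and SCD from -0.37 to 0.57. Slopes ranged in LD from -0.21 to 0.03 for NR1H3, -0.11 to 0.21 for PNPLA2, -0.67 to -0.25 for PLIN4, -0.82 to -0.29 for ACACA, 0.41 to 0.76 for LIPE and -0.01 to 0.39 for PCK1, and in S from 0.01 to 0.37 for LIPE, 0 to 0.18 for NR1H3, 0.02 to 0.24 for PNPLA2, 0.1 to 0.64 for ACACA, -0.92 to 0.02 for PLIN4 and -0.39 to 0.02 for PCK1. Marker levels without FABP4 or with ADIPOQ were not run, since neither symbol was matched to a gene ID here. PLIN1 at 0 to 78.59 counts and ACACA at 0 to 32 limit what depth can show.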
